A study of Mus musculus with 24 samples.

Results

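The genes described here encode the proteins of the mitochondrial ribosome. Members were all probes that are not controls and whose gene name in the scanner files starts with Mrpl or Mrps followed by a digit. This gave 125 probes for 75 genes, out of 41174 probes for 27670 genes or features in all. Each gene was represented by its brightest probe, and all 75 were well above background in the sample channel on every one of the 24 arrays, so that none was lost to the filter on dim probes. By the subunit in which the protein sits, 48 belong to the large subunit and 26 to the small subunit, and Mrps36 was left unassigned.

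The cells were mouse embryonic fibroblasts (MEFs), connective tissue cells from day 13.5 embryos of C57BL6 crosses, all grown with β-mercaptoethanol in the medium. CHIP null cells, written CHIP(-/-), lack the ubiquitin ligase CHIP, the product of Stub1, in every cell, and wildtype cells are CHIP(+/+). The 8 groups of 3 arrays were CHIP null heated to 43 °C and CHIP null kept at 37 °C, then wildtype heated and wildtype kept at 37 °C, each with a 240 min and a 30 min label. The labels call the replicates of a condition biological but do not give the embryos or the number of lines behind them, so differences between lines cannot be told apart from genotype. All values below are log2 ratios of sample RNA over a common reference RNA, and a change is a difference between such ratios.

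Mitochondria keep a small genome that encodes a few core proteins of the respiratory chain, and those proteins are made on a ribosome of their own inside the organelle. All proteins of that ribosome are encoded in the nucleus, translated in the cytosol, imported and assembled on mitochondrial RNA as a large subunit, which forms peptide bonds, and a small subunit, which reads the message. Many descend from bacterial ribosomal proteins and the others were gained in the mitochondrial lineage.

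The genotype was visible in every array. Stub1 lay between -2.43 and -1.72 in CHIP null cells and between -0.24 and -0.01 in wildtype cells, with no overlap. Between 32.9% and 48.6% of probes were well above background, and replicate arrays correlated at 0.981 to 0.995 across genes. Of 13 fibroblast markers, 11 to 13 were well above background in each group, while of 13 macrophage markers 4 to 10 were. The array mean of the macrophage markers was -0.29 to -0.28 in wildtype controls labelled 30 min, against -1.14 to -1.03 in the CHIP null controls of that label, and -1.68 to -0.78 over all groups other than those wildtype controls. The arrays labelled 240 and 30 min were scanned on different days, on 3 slides each, so time and scan cannot be told apart. The time labels are themselves uncertain: each of the 12 control columns of the authors' value table correlated at 0.9996 to 0.9999 with the scanner file that carries the other time label, and at 0.822 to 0.900 with the file of its own label. Its 12 heat columns correlated at 0.998 to 0.999 with the heated minus control ratios of the other time label and at 0.102 to 0.261 with those of their own. Heated arrays thus keep the same controls under both sets of labels, and only the names 240 and 30 min are exchanged. Times here are those of the scanner files, and the sources used here do not say which set is right. By these labels Hspa1a, an inducible heat shock gene, rose with heat by 2.24 in CHIP null and 3.27 in wildtype cells at 240 min. Replicate 1 of heated CHIP null cells at 240 min had no Hspa1a value, and the other replicates had 2.21 and 0.78. Heated wildtype arrays of that label had 4.04, 1.39 and 1.72. At 30 min Hspa1a had 0.46 and 0.38, which did not pass the threshold. Hspd1, also a heat shock gene, went the other way in CHIP null and wildtype cells. Its changes were -0.83 and -0.81 at 240 min and -0.99 and -0.64 at 30 min, all past the threshold.

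The promoters of members are shown first. Whether their motifs have a part in the changes below was not tested. RefSeq (GRCm38.p6) gave a window from upstream of the start to 50 bases after it for 66 of the 75 genes. Short motifs known from promoters of mitochondrial genes were searched on both strands: an ETS core, CCGGAAGT, an NRF1 core, GCGCANGCG, and a YY1 core, AAGATGGCG, together with a heat shock element core, GAANNTTC or TTCNNGAA, and TATAAA. Matches of one palindrome-like motif can overlap each other. The ETS letters were present in 11 of the 66 promoters (16.7%), against 4% of 27025 promoters in all and 8.27% of the 9638 promoters of genes tested here. The NRF1 letters were in 15 (22.7%), against 6.47% of all promoters and 13.7% of those of tested genes, and the YY1 letters in 7 (10.6%), against 1.49% and 3.26%. The heat shock element letters were in 6 (9.09%), against 15.1% of all and 11.4% of tested promoters, and TATAAA in 4 (6.06%), against 14.2% and 7.9%.

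Printed below, 5′ to 3′ on the gene's strand with matches in capitals, are promoters of 4 members that rose with heat in every comparison (Mrpl30 with 2 NRF1 matches, Mrpl52 with an ETS match, Mrpl36 with a YY1 and a heat shock element match, and Mrpl21, the member with the largest heat change). They are followed by Mrpl50, which moved the other way, and Mrps6, which had the largest difference between genotypes.
Mrpl30, chr1:37890227-37890526, + strand: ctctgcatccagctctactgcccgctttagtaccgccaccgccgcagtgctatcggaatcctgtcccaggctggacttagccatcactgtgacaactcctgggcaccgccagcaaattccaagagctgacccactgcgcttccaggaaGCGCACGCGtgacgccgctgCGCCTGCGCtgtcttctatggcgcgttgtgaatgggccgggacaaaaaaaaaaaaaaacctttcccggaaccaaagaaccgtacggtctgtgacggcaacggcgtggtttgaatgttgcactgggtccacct
Mrpl52, chr14:54426659-54426958, + strand: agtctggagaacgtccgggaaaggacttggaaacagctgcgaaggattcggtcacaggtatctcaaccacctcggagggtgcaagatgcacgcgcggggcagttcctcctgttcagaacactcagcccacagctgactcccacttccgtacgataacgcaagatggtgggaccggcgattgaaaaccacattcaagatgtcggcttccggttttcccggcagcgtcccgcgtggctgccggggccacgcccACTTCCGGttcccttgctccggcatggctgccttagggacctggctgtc
Mrpl36, chr13:73330759-73331058, + strand: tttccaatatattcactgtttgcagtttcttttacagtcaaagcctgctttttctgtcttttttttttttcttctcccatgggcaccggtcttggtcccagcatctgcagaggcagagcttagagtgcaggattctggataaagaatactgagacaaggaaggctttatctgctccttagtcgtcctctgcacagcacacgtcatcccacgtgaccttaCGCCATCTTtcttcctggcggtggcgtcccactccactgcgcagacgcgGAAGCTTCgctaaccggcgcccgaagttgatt
Mrpl21, chr19:3282792-3283091, + strand: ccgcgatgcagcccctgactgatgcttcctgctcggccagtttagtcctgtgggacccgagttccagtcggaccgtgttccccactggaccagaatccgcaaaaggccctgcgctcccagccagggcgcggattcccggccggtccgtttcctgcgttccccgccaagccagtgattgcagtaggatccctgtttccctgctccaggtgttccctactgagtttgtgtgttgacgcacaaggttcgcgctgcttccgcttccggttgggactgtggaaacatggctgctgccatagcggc
Mrpl50, chr4:49521034-49521333, - strand: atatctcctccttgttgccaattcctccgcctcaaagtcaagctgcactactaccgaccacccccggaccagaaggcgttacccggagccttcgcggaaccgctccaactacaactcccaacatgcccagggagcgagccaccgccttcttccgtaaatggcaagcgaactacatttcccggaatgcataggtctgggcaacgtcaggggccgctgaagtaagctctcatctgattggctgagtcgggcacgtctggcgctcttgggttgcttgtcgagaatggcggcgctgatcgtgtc
Mrps6, chr16:92058086-92058385, + strand: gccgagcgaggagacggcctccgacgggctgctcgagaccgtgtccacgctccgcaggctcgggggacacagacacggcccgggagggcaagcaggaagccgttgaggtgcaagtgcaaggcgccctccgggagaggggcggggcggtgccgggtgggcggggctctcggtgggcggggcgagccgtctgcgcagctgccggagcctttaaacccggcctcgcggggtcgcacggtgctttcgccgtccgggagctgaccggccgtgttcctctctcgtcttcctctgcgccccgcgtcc
No match in the last 3 says only that these letters are not in these windows. The Mrps6 window also covers the start of Slc5a3, which encodes a myo-inositol transporter and overlaps Mrps6 on the same chromosome in the RefSeq annotation.

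After loess normalization the mitochondrial ribosomal protein genes were higher in heated cells by small amounts in both genotypes. After median centring 0 members were called higher in any heat comparison, and of all genes called only 0.405% to 4.32% were higher. The members' median change in wildtype cells at 240 min was then still above 0, at 0.11. In CHIP null cells at 240 min, 50 of 75 members rose and 0 fell (limma, Benjamini-Hochberg adjusted p under 0.05 over 13488 genes), with 24.5% of all genes rising and 14.5% falling. In wildtype cells at 240 min, 42 rose and 0 fell, against 18.8% and 12.7% of all genes. The median change was 0.19 in CHIP null cells, a 1.14-fold difference, and 0.19 in wildtype cells, against medians of 0.07 and 0.06 over all genes. On the arrays labelled 30 min, 28 members rose and 1 fell in CHIP null cells, where 22.6% of all genes rose and 12.6% fell. In wildtype cells of that label 18 rose and 1 fell, where 6.77% of all genes rose and 7.79% fell. The median change was 0.11 in both genotypes at 30 min, a 1.08-fold difference, against 0.03 over all genes in CHIP null and 0.01 in wildtype cells. At an unadjusted p under 0.05, 0 members fell in either genotype at 240 min.

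The median of the 75 members, taken on each array minus the median of all genes, separated heated from control arrays in all 4 pairs. At 240 min it was 0.24, 0.29 and 0.36 on heated CHIP null arrays, against 0.06, 0.08 and 0.07 on CHIP null controls. It was 0.28, 0.32 and 0.30 on heated wildtype arrays, against 0.10, 0.12 and 0.14 on wildtype controls. At 30 min it was 0.22, 0.28 and 0.26 on heated CHIP null arrays, against 0.12, 0.16 and 0.09 on their controls. Heated arrays of both genotypes thus lay above their controls with no overlap at 240 min, and those of CHIP null at 30 min did too. Heated wildtype arrays labelled 30 min had 0.14, 0.18 and 0.18, against 0.02, 0.05 and 0.08 on wildtype controls, again with no overlap.

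**Figure D1:**
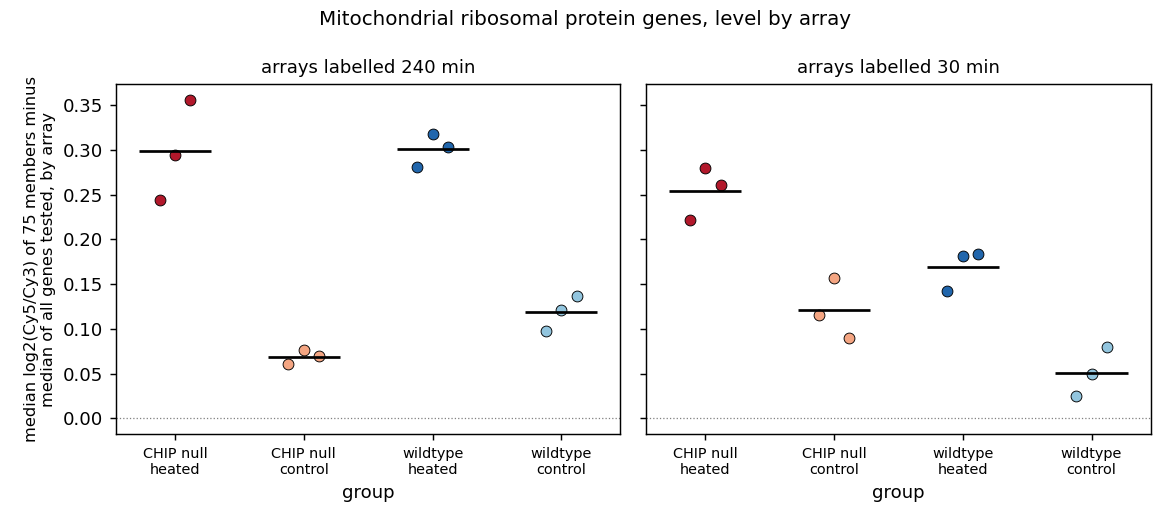
Median log2 ratio of the 75 members minus the median of all genes tested, 1 point per array and a line at the mean of 3 arrays, by group (x axis) for the arrays labelled 240 and 30 min. Every heated array lies above the 3 controls of its genotype and time; the values are those after loess normalization, and median centring puts the heated CHIP null members at 30 min 0.05 below the median change of all genes.

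The direction of the members' median change depended on how the 2 dyes were balanced, except in wildtype cells at 240 min, where median centring gave 0.11. Loess removes a dye bias that changes with brightness, whereas centring each array on its median does not, and without loess all genes had a median change of -0.18 for heat in CHIP null cells at both times, -0.03 in wildtype cells at 240 min and -0.09 at 30 min. Relative to that shift, the members' median was 0.07 higher in CHIP null and 0.14 higher in wildtype cells at 240 min, and 0.05 higher in wildtype cells at 30 min, but in CHIP null cells at 30 min it was lower, at -0.05. With loess the same differences from all genes were 0.12 and 0.13 at 240 min and 0.10 in wildtype cells at 30 min, and 0.07 in CHIP null cells at 30 min. With the scanner software's own normalized ratio they were 0.13 and 0.12 at 240 min in CHIP null and wildtype cells, and 0.17 and 0.13 at 30 min. After median centring the calls themselves were 0 higher and 5 lower in CHIP null cells at 240 min and 0 and 30 at 30 min. In wildtype cells they were 0 in either direction at both times. Of all genes, that setting called 34.8% and 39.0% in CHIP null cells at 240 and 30 min, with 0.405% and 0.799% of those calls higher. In wildtype cells it called 13.7% and 4.59%, with 4.32% and 4.2% of those calls higher.

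**Figure D2:**
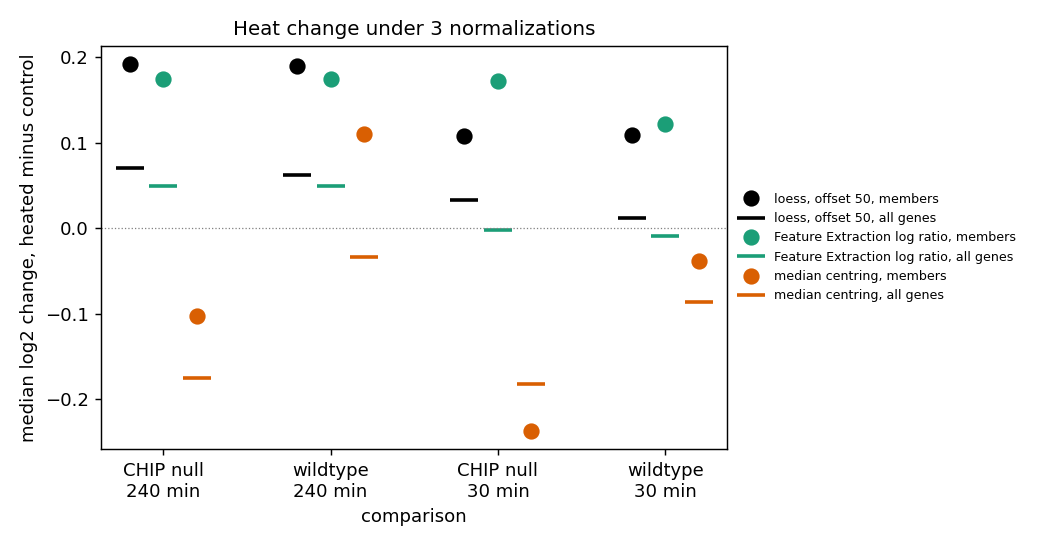
Median log2 change with heat (y axis) of the 75 members (circles) and of all genes (bars) in the 4 heat comparisons (x axis), under loess with an offset of 50, the Feature Extraction log ratio and median centring. Members lie above all genes in 11 of the 12 pairs; the exception is CHIP null at 30 min under median centring, where the members are at -0.24 and all genes at -0.18.

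Slides matter as well, because each heat comparison had only 1 slide with arrays of both treatments. Within those slides the members' median change was 0.18 in CHIP null and 0.15 in wildtype cells at 240 min, and 0.12 and 0.08 at 30 min, with 71, 72, 63 and 55 of the 75 members above 0. One side of each such comparison was a lone array. With slide as a block in the fit, the calls fell to 19 higher and 0 lower in CHIP null and 6 and 0 in wildtype cells at 240 min. At 30 min they fell to 12 and 1 in CHIP null and 3 and 0 in wildtype cells. Calls over all genes fell as well, from 39.0% to 20.4% in CHIP null and from 31.5% to 4.58% in wildtype cells at 240 min. The matching shares at 30 min went from 35.2% to 20.0% and from 14.6% to 3.36%.

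Among proteins of the large subunit, 36 of 48 rose in CHIP null and 29 in wildtype cells at 240 min, and 21 and 12 rose at 30 min. Mrpl21, a homologue of bacterial L21, had the largest change in 3 of the 4 comparisons. Heated CHIP null arrays labelled 240 min had 0.98, 1.05 and 0.93, against 0.66, 0.53 and 0.78 in CHIP null controls. Heated wildtype arrays had 1.16, 1.17 and 1.15, against 0.81, 0.72 and 0.75 in wildtype controls. The heated groups lay above their controls without overlap, and the 3 heated wildtype arrays were nearly equal. At 30 min Mrpl21 stood at 0.87, 0.70 and 0.64 in heated CHIP null cells, against 0.36, 0.26 and 0.24 in controls. In wildtype cells it stood at 0.53, 0.49 and 0.73 after heat, against 0.28, 0.26 and 0.25 in controls. The changes of Mrpl21 were 0.33 ± 0.07 (SE, n = 3 arrays per group; limma adjusted p = 0.00058) in CHIP null and 0.40 ± 0.07 (adjusted p = 9.4e-05) in wildtype cells at 240 min, and 0.45 ± 0.07 (adjusted p = 3.0e-05) and 0.32 ± 0.07 (adjusted p = 0.0026) at 30 min, or 1.25-fold to 1.37-fold. After median centring the changes of Mrpl21 were 0.03 and 0.29 at 240 min and 0.14 and 0.16 at 30 min and did not pass the threshold.

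Mrpl13, a homologue of L13 that in bacteria is needed early in assembly of the large subunit, had 0.66, 0.62 and 0.67 in heated CHIP null cells at 240 min, against 0.48, 0.47 and 0.48 in controls. In wildtype cells of that label it had 0.65, 0.77 and 0.71 after heat, against 0.40, 0.44 and 0.46 in controls. After median centring Mrpl13 had -0.11 at 240 min and -0.14 at 30 min in CHIP null cells. With loess the changes of Mrpl13 were 0.17 ± 0.05 and 0.28 ± 0.05 at 240 min and 0.30 ± 0.05 in CHIP null and 0.22 ± 0.05 in wildtype cells at 30 min, each past the threshold. Mrpl13 and Mrpl21 were among 10 members that rose in all 4 heat comparisons, with Mrpl16, Mrpl17, Mrpl30, Mrpl34, Mrpl36, Mrpl52 and Mrpl53 of the large subunit and Mrps11 of the small subunit. The second probe of Mrpl52 gave -0.17 in CHIP null and -0.02 in wildtype cells at 240 min and 0.04 and 0.09 at 30 min, so its rise rests on the brighter probe. A further 13 rose in 3 comparisons, 23 in 2, 13 in 1 and 16 in none. The same tally over all genes is not given here.

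**Figure D3:**
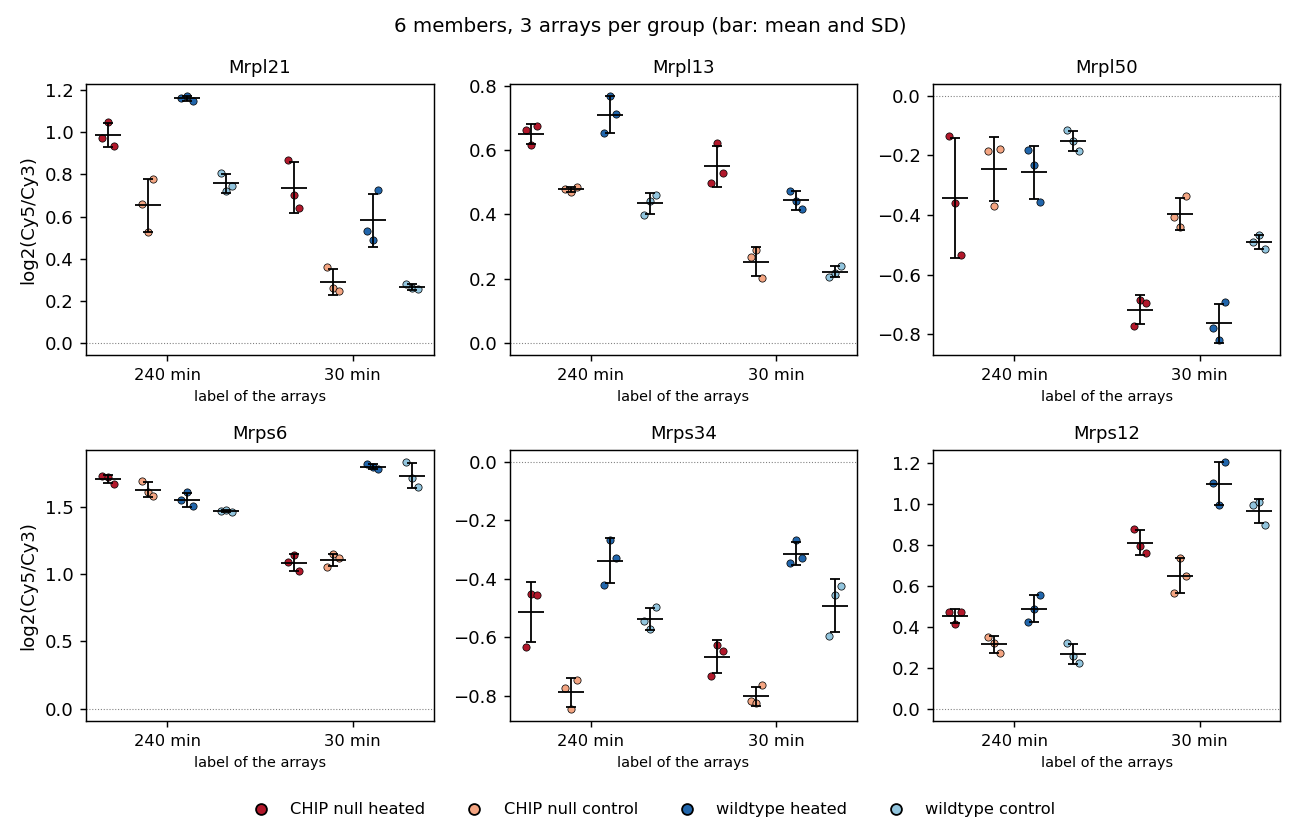
Log2 ratio of 6 members on each array (points) with the mean and SD of 3 arrays, for arrays labelled 240 min (left) and 30 min (right), in the order CHIP null heated, CHIP null control, wildtype heated, wildtype control. With loess, Mrpl21 and Mrpl13 lie higher after heat in every pair (after median centring Mrpl13 changed by -0.11 and -0.14 in CHIP null cells), Mrpl50 lower at 30 min, and Mrps6 is near 1.1 in CHIP null cells labelled 30 min, against 1.65 to 1.83 in wildtype cells of that label.

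The largest rises differed by time label. At 240 min in CHIP null cells they were Mrpl48 (0.41 ± 0.06), Mrpl1 (0.34 ± 0.06), whose bacterial homologue forms the L1 stalk, Mrpl32 (0.34 ± 0.07) and Mrpl46 (0.34 ± 0.07). Mrpl48 had 0.13 ± 0.06 in wildtype cells at 240 min (limma adjusted p = 0.11). In wildtype cells at 240 min, Mrpl21 was followed by Mrps21 (0.33 ± 0.06), Mrps7 (0.32 ± 0.07, and 0.13 for its second probe), a homologue of S7, and Mrpl38 (0.31 ± 0.07). At 30 min in CHIP null cells Mrpl21 was followed by Mrpl24 (0.35 ± 0.07), whose bacterial homologue starts assembly of the large subunit, Mrpl23 (0.30 ± 0.06), whose homologue lies at the exit of the peptide tunnel, and Mrpl13. At 30 min in wildtype cells they were Mrpl16 (0.31 ± 0.06), Mrpl53 (0.27 ± 0.06) and Mrpl52 (0.25 ± 0.05) after Mrpl21. Mrpl1 did not pass the threshold at 30 min, with -0.12 in CHIP null and -0.02 in wildtype cells. Whether the heat changes differ between time labels was not tested.

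Mrpl50, a protein of the large subunit without a bacterial homologue, was the only member called lower after heat with loess. At 30 min it had -0.77, -0.69 and -0.69 in heated CHIP null cells, against -0.41, -0.44 and -0.34 in controls. In wildtype cells it had -0.78, -0.82 and -0.69 after heat, against -0.49, -0.47 and -0.51 in controls. The groups did not overlap in either genotype. The changes of Mrpl50 were -0.32 ± 0.07 (limma adjusted p = 0.0014) in CHIP null and -0.27 ± 0.07 (adjusted p = 0.013) in wildtype cells, and the second did not pass the threshold without replicate 2 of the heated wildtype arrays (-0.25), with slide as a block (-0.25) or after median centring (-0.48). Members called lower at 30 min were 30 in CHIP null and 0 in wildtype cells after median centring, and 2 and 1 with the scanner software's ratio. Of all genes, median centring called 39.0% and 4.59% there, with 0.799% and 4.2% of those calls higher. The scanner software's ratio called 34.1% and 20.4%, with 46.0% and 39.3% of those calls higher. At 240 min the changes of Mrpl50 were -0.10 and -0.11, with overlapping groups, and did not pass. A dimmer second probe of Mrpl50 gave -0.04 in CHIP null and 0.03 in wildtype cells at 30 min and 0.20 and 0.13 at 240 min, so the fall rests on 1 of 2 probes.

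**Figure D4:**
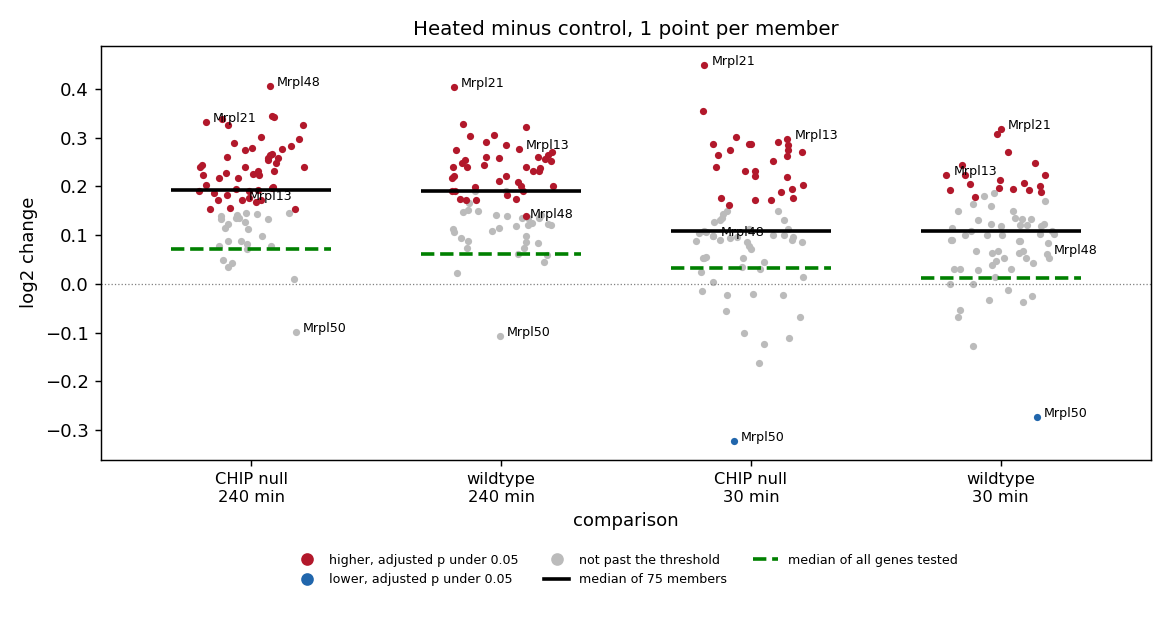
Log2 change of each of the 75 members, heated minus control (y axis), in the 4 heat comparisons (x axis), coloured by the limma call, with the medians of the members (black) and of all genes (green dashes). The members' median lies above that of all genes, by 0.07 to 0.13, and Mrpl50 is the lowest point in every comparison. After median centring 0 members were called higher, and of all genes called only 0.405% to 4.32% were higher.

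Of the 26 proteins of the small subunit, 14 rose in CHIP null and 12 in wildtype cells at 240 min, and 6 and 5 at 30 min, and 0 fell. Mrps12, homologue of the S12 protein at the decoding site, changed by 0.14 ± 0.06 in CHIP null cells at 240 min (limma adjusted p = 0.070), 0.22 ± 0.06 in wildtype cells at 240 min (adjusted p = 0.0072), 0.16 ± 0.06 in CHIP null cells at 30 min (adjusted p = 0.039) and 0.13 ± 0.06 in wildtype cells at 30 min (adjusted p = 0.14). Of the 3 relatives of bacterial S18, Mrps18b and Mrps18c belong to the small subunit and Mrps18a to the large one. Mrps18a changed by 0.23 and 0.25 at 240 min, both past the threshold, and Mrps18c by 0.19 and 0.30, both past it, whereas Mrps18b had 0.10 and 0.09 and passed in neither. The 3 dimmest members were Mrps11, Mrps27 and Mrps18b, and the 3 brightest Mrpl33, Mrpl28 and Mrps16. Mrps16 had 0.09 in each of the 4 comparisons and passed in none, and Mrpl33 rose by 0.28 in CHIP null cells at 30 min and by 0.24 in wildtype cells at 240 min.

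The members were also read by whether the protein has a bacterial homologue. Of 46 members with a bacterial homologue, 31 rose in CHIP null and 29 in wildtype cells at 240 min, and 20 and 11 at 30 min. Of 26 without one, 18 and 11 rose at 240 min, and 6 and 6 at 30 min. The medians of the 2 classes at 240 min were 0.19 and 0.21 in CHIP null and 0.20 and 0.16 in wildtype cells.

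Members with roles outside the ribosome or with known links to human disease were also followed. Mrpl12, whose human protein also binds the mitochondrial RNA polymerase, rose by 0.24 in CHIP null cells at 240 min and by 0.22 at 30 min, and had 0.19 and 0.16 in wildtype cells, neither past the threshold. Mrpl41, linked to p53-dependent growth arrest in human cells, rose by 0.23 in CHIP null cells at 240 min and by 0.19 in wildtype cells at 30 min. Mrps36, now known as a part of the 2-oxoglutarate dehydrogenase complex, rose by 0.19 in wildtype cells at 240 min, and by 0.26 in CHIP null and 0.21 in wildtype cells at 30 min. Mrps30, first described in chicken in connection with cell death, had 0.13 and 0.14 at 240 min and 0.02 and 0.01 at 30 min, and passed in none. Of the genes mutated in human mitochondrial disease, Mrpl3 (0.25 and 0.20) and Mrps22 (0.26 and 0.22) rose at 240 min in CHIP null and wildtype cells, and Mrpl44, with 0.09 and 0.05, passed in no heat comparison.

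Other parts of the mitochondrial translation system were read from lists chosen with earlier results of these data known. Mrpl42, which the scanner files list under an older name and which was looked up after its values were seen, rose in all 4 comparisons, by 0.30 in CHIP null and 0.30 in wildtype cells at 240 min and by 0.16 and 0.18 at 30 min. Of 7 further ribosomal proteins without such a name, 1 rose and 0 fell in CHIP null and 2 rose and 0 fell in wildtype cells at 240 min, and 2 rose and 1 fell in CHIP null and 0 rose and 1 fell in wildtype cells at 30 min. The one that fell was Ptcd3, a small subunit protein that binds RNA, with -0.29 ± 0.06 in CHIP null and -0.21 ± 0.06 in wildtype cells at 30 min. Gadd45gip1, a large subunit protein at the tunnel exit, rose by 0.21 and 0.19 at 240 min. Of 21 assembly factors, 8 rose in CHIP null and 6 in wildtype cells at 240 min and 2 and 1 at 30 min, with 0 lower; Mtg1, a GTPase of the large subunit, rose by 0.30 and 0.31 at 240 min. Of 15 translation factors tested, 8 rose and 1 fell in CHIP null and 7 rose and 0 fell in wildtype cells at 240 min, among them the release factor family gene Mtrf1 (0.30 and 0.25). At 30 min 2 rose and 1 fell in CHIP null and 1 rose and 1 fell in wildtype cells; the one that fell each time was Lrpprc, which stabilizes mitochondrial messages, with -0.19 in CHIP null cells at 240 min and -0.20 in CHIP null and -0.27 in wildtype cells at 30 min. After median centring 0 assembly factors and 0 translation factors were called higher in any heat comparison, and of all genes called only 0.405% to 4.32% were higher.

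Of 16 mitochondrial tRNA synthetases tested, 2 rose and 0 fell in CHIP null and 5 rose and 1 fell in wildtype cells at 240 min, and 5 and 0 in CHIP null and 0 and 1 in wildtype cells at 30 min. Of 13 genes of mitochondrial transcription and RNA processing, 5 rose and 0 fell in CHIP null and 3 rose and 1 fell in wildtype cells at 240 min, and 1 and 2 rose at 30 min, with 0 lower. Tfam, which packs mitochondrial DNA, rose by 0.46 in CHIP null and 0.38 in wildtype cells at 30 min. Of 11 regulators of mitochondrial genes tested, 0 rose and 4 fell in CHIP null and 0 rose and 3 fell in wildtype cells at 240 min, led by Gabpa, which encodes the ETS subunit of GABP (-0.43 and -0.44), and Myc (-0.39 and -0.31). At 30 min 1 rose and 1 fell in CHIP null, and 0 passed the threshold in wildtype cells. After median centring 7 regulators fell in CHIP null and 3 in wildtype cells at 240 min. That setting called 34.8% and 13.7% of all genes, and 0.405% and 4.32% of those calls were higher.

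Beside these, 80 genes of the cytosolic ribosome gave 30 higher in CHIP null and 31 in wildtype cells at 240 min, and 74 and 58 at 30 min, with 0 lower. Their median change was 0.15 and 0.16 at 240 min and 0.37 and 0.25 at 30 min. Of 81 nuclear genes of the respiratory chain tested, 35 rose and 1 fell in CHIP null and 35 rose and 0 fell in wildtype cells at 240 min, and 45 and 2 in CHIP null and 16 and 2 in wildtype cells at 30 min, with medians of 0.15 and 0.15 at 240 min and 0.19 and 0.10 at 30 min. After median centring the cytosolic medians were 0.02 and 0.32 at 240 min and 0.04 and 0.23 at 30 min, and those of the respiratory chain -0.07 and 0.21 at 240 min and -0.22 and 0.00 at 30 min. With loess the medians of the mitochondrial ribosomal protein genes (0.19 and 0.19 at 240 min, 0.11 and 0.11 at 30 min) were above those of the other lists at 240 min and below the cytosolic ones at 30 min. After median centring the members' medians were -0.10 and 0.11 at 240 min and -0.24 and -0.04 at 30 min. These were below the centred medians of both other lists. The differences between lists were not tested. Macrophage markers moved with heat too: of 10 tested, 7 rose in CHIP null and 3 in wildtype cells at 240 min, and 3 rose and 2 fell in CHIP null and 0 rose and 7 fell in wildtype cells at 30 min. Their part in the members' changes was not tested.

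The heat changes of the 2 genotypes were also set against each other. Of the members that rose at 240 min, 34 were shared, which is 68% of those of CHIP null and 81.0% of those of wildtype cells. At 30 min 14 were shared, or 50% and 77.8%. The matching shares over all genes are not given here, so this sharing cannot be read as particular to the members. In the test of the difference itself, 0 members had a larger heat change in either genotype at 240 min, and 0 at 30 min, where 0.386% of all genes had a larger and 0.0593% a smaller change in CHIP null cells; at 240 min both shares were 0%. At an unadjusted p under 0.05, 2 members were larger in CHIP null cells at 240 min and 1 at 30 min, and 0 were smaller. The largest such difference was that of Mrpl48 at 240 min, 0.27 ± 0.09 (limma adjusted p = 0.9998).

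Genotype differences ran in both directions at 30 min. At 240 min the few called members were lower in CHIP null cells, at shares below those of all genes called lower. Among heated cells at 30 min, 17 members were higher and 5 lower in CHIP null than in wildtype cells, against 14.2% and 13.3% of all genes. Among controls at 30 min, 17 were higher and 6 lower, against 14.7% and 19.4% of all genes. At 240 min 0 were higher and 5 lower among heated cells, against 4.66% and 8.3% of all genes, and 0 higher and 3 lower among controls, against 4.8% and 8.26%. The members' median differences were -0.05 and -0.07 at 240 min in heated and control cells and 0.07 and 0.06 at 30 min. After median centring they were -0.22 and -0.00092 at 240 min and -0.0057 and 0.20 at 30 min. Relative to all genes they were -0.03 and -0.06 at 240 min and 0.06 and 0.07 at 30 min with loess, and -0.09 and -0.03 at 240 min and 0.03 and 0.15 at 30 min after median centring. The counts at 240 min were unsteady: with 1 array left out in turn they ran from 1 to 4 of 5 among heated cells, lowest without replicate 2 of heated wildtype, and from 1 to 3 of 3 among controls.

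After median centring 0 members were higher and 3 lower in heated and 24 higher and 1 lower in control cells at 30 min. That setting called 11.4% of all genes in heated and 21.2% in control cells, and 29.0% and 66.9% of those calls were higher. Of the members higher with loess in CHIP null cells at 30 min, 11 were shared between heated and control cells, or 64.7% of each set. The matching share over all genes is not given here. These 2 comparisons share no array, but their arrays lie on the same slides and set the same genotypes against each other, so they are not independent. Mrpl47, a homologue of bacterial L29 at the tunnel exit, was higher by 0.28 ± 0.06 in heated and 0.29 ± 0.06 in control cells. Mrpl19 (0.27 and 0.25), Mrpl3 (0.26 and 0.23), Mrpl35 (0.23 and 0.30) and Mrps22 (0.24 and 0.27) were also higher in both. The second probe of Mrpl47 gave 0.04 in heated and 0.05 in control cells, and the other probes of Mrpl35 gave 0.04 and 0.10 in heated and 0.03 and 0.05 in control cells, so these rest on the brightest probe. Mrpl2, whose bacterial homologue lies at the peptidyl transferase centre, passed in heated cells (0.26) but not in controls (0.09), and Mrps23 passed in controls (0.27) but not in heated cells (0.15), while its second probe gave -0.02 in controls and 0.22 in heated cells. None of these passed at 240 min, where Mrpl47 had -0.15 in heated and -0.13 in control cells. With slide as a block the counts were 7 higher and 2 lower in heated and 4 higher and 3 lower in control cells at 30 min. At 240 min 0 passed in heated cells and 0 were higher and 1 lower in controls. Of all genes, that fit called 12.7% in heated and 12.2% in control cells at 30 min, and 2.74% and 3.48% at 240 min. In controls at 30 min that fit turned Mrpl19 to -0.02, Mrpl35 to -0.03 and Mrps23 to -0.03. No slide held both genotypes at the same treatment, so no within-slide value can be had.

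Mrps6, a homologue of the small subunit protein S6, had the largest difference between genotypes. At 30 min it stood at 1.09, 1.14 and 1.02 in heated CHIP null cells, against 1.82, 1.80 and 1.78 in heated wildtype cells. In controls it stood at 1.06, 1.15 and 1.12 in CHIP null cells, against 1.83, 1.71 and 1.65 in wildtype cells. At 30 min all CHIP null arrays were thus well below all wildtype arrays, whether heated or not. At 240 min the heated cells had 1.72, 1.72 and 1.67 in CHIP null, against 1.55, 1.61 and 1.503 in wildtype. The controls had 1.69, 1.61 and 1.58 in CHIP null, against 1.47, 1.48 and 1.46 in wildtype. There the CHIP null arrays were the higher ones. The differences were -0.71 ± 0.06 (limma adjusted p = 2.8e-11) in heated and -0.63 ± 0.06 (adjusted p = 3.7e-10) in control cells at 30 min, or 0.61-fold and 0.65-fold, and 0.15 ± 0.06 (adjusted p = 0.070) and 0.16 ± 0.06 (adjusted p = 0.058) at 240 min. The second probe of Mrps6 gave -0.65 and -0.56 at 30 min and 0.09 and 0.06 at 240 min, and with slide as a block the brighter probe gave -0.84 and -0.67 at 30 min. Slc5a3, which overlaps it, differed by -0.22 ± 0.07 in heated cells (adjusted p = 0.024) and by -0.07 in controls (adjusted p = 0.49) at 30 min. Mrps6 itself did not pass the threshold in any heat comparison.

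Mrps34, a small subunit protein without a bacterial homologue, was lower with loess in CHIP null controls at both times. Its gene lies on chromosome 17, which also carries Stub1, with a gap of 934 kb between them. Mrpl28 lies nearer to Stub1. Its 2 probes differed by 0.13 to 0.20 in heated and 0.06 to 0.11 in control cells at 30 min, and by 0.08 to 0.10 and -0.05 to 0.10 at 240 min. Whether position has a part in these differences was not tested. At 240 min Mrps34 had -0.63, -0.45 and -0.46 in heated CHIP null cells, against -0.42, -0.27 and -0.33 in heated wildtype cells. The controls of that label had -0.77, -0.84 and -0.75 in CHIP null, against -0.55, -0.57 and -0.50 in wildtype cells. At 30 min it had -0.73, -0.62 and -0.65 in heated CHIP null cells, against -0.34, -0.27 and -0.33 in heated wildtype cells. CHIP null arrays lay below wildtype arrays without overlap in each of these sets. The controls labelled 30 min had -0.82, -0.82 and -0.76 in CHIP null, against -0.59, -0.46 and -0.43 in wildtype cells. The differences of Mrps34 were -0.18 ± 0.06 (limma adjusted p = 0.052) and -0.25 ± 0.06 (adjusted p = 0.0044) in heated and control cells at 240 min, and -0.35 ± 0.06 (adjusted p = 4.1e-05) and -0.31 ± 0.06 (adjusted p = 0.00017) at 30 min. With slide as a block those at 30 min were -0.22 and -0.18 and did not pass, and that of controls at 240 min was -0.39. After median centring the differences in controls were -0.17 at 240 min and -0.09 at 30 min, and neither passed. In heated cells they were then -0.37 at 240 min and -0.43 at 30 min. Of the 8 members on chromosome 17, 2 were higher and 1 lower in heated CHIP null cells and 1 higher and 1 lower in controls at 30 min, and 0 passed in heated cells and 2 were lower in controls at 240 min (Mrps34 and Mrpl18).

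**Figure D5:**
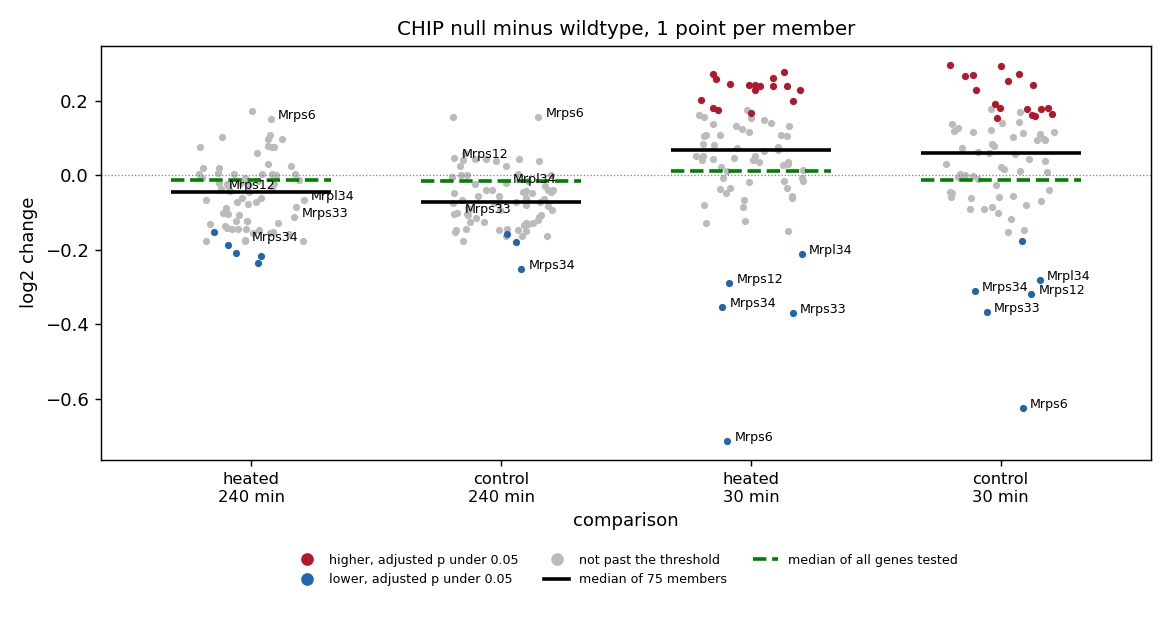
Log2 difference of each of the 75 members, CHIP null minus wildtype (y axis), among heated and control cells labelled 240 and 30 min (x axis), coloured by the limma call, with the medians of the members (black) and of all genes (green dashes). Mrps6 stands apart at -0.71 and -0.63 at 30 min and lies above 0 at 240 min.

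Mrps12 had 0.88, 0.80 and 0.76 in heated CHIP null cells at 30 min, against 1.10, 0.99 and 1.21 in heated wildtype cells. In controls at 30 min it had 0.57, 0.74 and 0.65 in CHIP null, against 0.99, 1.01 and 0.90 in wildtype cells. The CHIP null arrays were lower without overlap in both. The differences were -0.29 ± 0.06 and -0.32 ± 0.06 at 30 min, both past the threshold, and -0.04 and 0.05 at 240 min. After median centring those of Mrps12 at 30 min were -0.38 in heated and -0.18 in control cells, and the latter did not pass. Its neighbour Sars2, which encodes the mitochondrial seryl-tRNA synthetase, differed by 0.06 and 0.08 at 30 min and did not pass. Mrpl34, a homologue of L34, was lower by -0.21 in heated and -0.28 in control cells at 30 min. Mrps33 was lower by -0.37 in both, but its other 2 probes gave -0.12 and -0.05 in heated and -0.15 and 0.14 in control cells, the widest spread between probes of a member (0.51). Over the 26 members with more than 1 probe above background, probes of a gene differed by a median of 0.11 per comparison, and in 0 cases did probes pass in opposite directions.

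At 240 min the members lower in heated CHIP null cells were Mrps18c (-0.24), Mrpl53 (-0.22), Mrpl22 (-0.21), Mrpl55 (-0.19) and Mrpl45 (-0.15, and -0.01 for its second probe), the last being a protein that tethers the ribosome to the inner membrane. Those lower in CHIP null controls were Mrps34, Mrpl18 (-0.18) and Mrpl45 (-0.16). Respiratory chain genes were lower in CHIP null cells in more cases: of 81, 0 were higher and 25 lower in heated and 0 and 18 in control cells at 240 min, and 1 and 27 in heated and 0 and 54 in control cells at 30 min. At 30 min median centring gave 0 higher and 4 lower in heated and 3 higher and 1 lower in control cells. That setting called 11.4% and 21.2% of all genes, and 29.0% and 66.9% of those calls were higher. Macrophage markers moved with genotype: of 10 tested, 0 were higher, and 5 of the heated and 6 of the control comparison were lower at 240 min, and 3 and 10 at 30 min, while fibroblast markers were higher in 6 and 6 of 13 at 240 min and in 9 and 6 at 30 min. In bulk RNA, fewer cells of a type and less RNA per cell cannot be told apart, and the part of these shifts in the members' differences was not tested.

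The 2 time labels were compared in the controls, where time cannot be told apart from scan day and slide. In CHIP null controls 13 members were higher and 14 lower at 240 than at 30 min, against 19% and 29.6% of all genes, with a median of -0.01. In wildtype controls 31 were higher and 10 lower, against 27.9% and 35.6% of all genes, with a median of 0.08. In wildtype controls Mrpl1 differed by 0.61 and Mrps12 by -0.70, and in CHIP null controls Mrps6 by 0.52 and Mrpl55 by -0.43. After median centring, 14 were higher and 1 lower in CHIP null controls, with a median of 0.13, and 49 and 1 in wildtype controls, with a median of 0.36. The matching shares and medians over all genes are not given here, so these values cannot be read as particular to the members.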

How the data were processed

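RNA from 24 cultures was hybridised in the Cy5 channel against a Cy3-labelled common mouse reference RNA on Agilent arrays. Per the file headers, the deposited intensity values are mean spot signals and median local backgrounds from Agilent Feature Extraction 9.1.3.1, and the deposited log10 ratio is that software's background-subtracted, dye-normalized Cy5 over Cy3. The authors' value table, read as a score because no source used here states its unit, holds deposited log ratios of the same arrays. In it the heat columns are relative to the mean of the controls of the same genotype and time, and its time labels disagree with the scanner files as described above. Control and outlier spots (333) were left out. Signals were corrected with normexp (offset 50) and loess in limma 3.58.1 (R 4.3.3), giving log2 ratios, and 43379 spots were averaged to 41174 probes.

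A gene was taken as its brightest probe and tested if it was well above background on all 3 arrays of at least 1 group, which left 13488 genes. One fit of 8 group means to 24 arrays, with moderated variances and Benjamini-Hochberg adjustment at 0.05, gave every adjusted p. Probe names were updated by accession for 105 and by symbol for 20 of the 125 member probes. The p-values measure the spread between arrays of the same group, pooled over the 8 groups. Whether that includes spread between embryos or lines is not given. The members and all gene lists were chosen with earlier results of these data known. Genes named are the 4 called members with the largest rise and the 4 with the largest fall in each heat and genotype comparison, a fixed set with other roles or human disease links, members whose probes differ by over 0.5, the 3 brightest and 3 dimmest, and some of the 2 called genes with the largest change per heat comparison in each other list. Others (Mrpl17, Mrpl30, Mrpl34, Mrpl36, Mrpl42, Slc5a3, Sars2, Hspa1a, Hspd1) were chosen after their values were seen. The fit was tested on simulated data with known changes. Replicate numbers were not used to pair arrays in the main fit, and the labels do not say whether they do. Deviations of same-numbered arrays correlated at -0.25 to 0.57. The highest were 0.57 and 0.45, for replicates 1 and 3 of heated CHIP null against wildtype cells at 240 min, where replicate 2 had 0.07. Alternatives were an offset of 10, median centring, the Feature Extraction ratio, no filter on dim probes, every probe as its own feature, slide as a block, the replicate number as a block, and leaving out each array. The number of arrays limits the precision.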

Additional observations from a re-analysis of the deposited data

How the results depend on the processing

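Counts of members past the threshold are given over both directions. After median centring they were 5 (heat in CHIP null at 240 min, against 50 with loess), 0 (heat in wildtype at 240 and at 30 min), 3 (CHIP null against wildtype, heated, at 240 and at 30 min), 0 (controls at 240 min) and 15 (240 against 30 min in CHIP null controls). Of all genes, median centring called 34.8%, 13.7% and 4.59%, 8.96% and 11.4%, and 6.18%, in that order. The share for the time comparison is not given here. With slide as a block they were 19 and 6 for heat at 240 min in CHIP null and wildtype cells, 13 and 3 at 30 min, 0 and 1 for genotype in heated and control cells at 240 min, and 9 and 7 at 30 min. Of all genes, that fit called 20.4% and 4.58%, 20.0% and 3.36%, 2.74% and 3.48%, and 12.7% and 12.2%, in that order. The Feature Extraction ratio gave 27 for heat in wildtype cells at 240 min and 2 for genotype in heated cells at 240 min, where an offset of 10 gave 0, and 1 for controls. The replicate block gave 1 for genotype in controls at 240 min and kept every other count within 1.5 times; the time comparison could not be fitted with a slide or replicate block.

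Leaving out 1 array gave 34 to 54 and 30 to 40 for heat at 240 min in CHIP null and wildtype cells, and 20 to 33 and 9 to 17 at 30 min. The count for heat in wildtype cells at 30 min was 9 without control replicate 2, 11 without control replicate 1 and 12 without heated replicate 3, against 19. For genotype it gave 1 to 4 and 1 to 3 in heated and control cells at 240 min and 16 to 22 and 16 to 20 at 30 min, and for time 22 to 27 in CHIP null and 37 to 40 in wildtype controls. The difference of heat effects gave 0 throughout.

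Median centring turned the members' median for heat to -0.10 and -0.24 in CHIP null cells at 240 and 30 min and -0.039 in wildtype cells at 30 min, for genotype in heated cells at 30 min to -0.0057, for the difference of heat effects to -0.23 and -0.21, and for time in CHIP null controls to 0.13. Values turned for heat in CHIP null cells at 240 min were Mrpl1 -0.0080, Mrpl12 -0.015, Mrpl13 -0.11, Mrpl16 -0.0091, Mrpl23 -0.033, Mrpl3 -0.026, Mrpl38 -0.11, Mrpl41 -0.062, Mrpl53 -0.091, Mrps11 -0.060, Mrps18a -0.089, Mrps18c -0.10, Mrps22 -0.064, Mrps27 -0.020, Mrps36 -0.29 and Mrps7 -0.029. At 30 min they were Mrpl12 -0.21, Mrpl13 -0.14, Mrpl16 -0.24, Mrpl23 -0.10, Mrpl24 -0.017, Mrpl28 -0.40 (-0.14 with the Feature Extraction ratio), Mrpl33 -0.10, Mrpl38 -0.13, Mrpl41 -0.32, Mrpl52 -0.18, Mrpl53 -0.14, Mrps11 -0.064, Mrps12 -0.23, Mrps16 -0.31, Mrps18a -0.20, Mrps22 -0.32, Mrps30 -0.44, Mrps36 -0.13 and Mrps7 -0.29. For genotype in controls at 30 min Mrpl33 turned to 0.16, and with slide as a block to 0.081, beside Mrpl19 -0.024, Mrpl35 -0.027 and Mrps23 -0.034. The cause was not tested. Of all genes called for heat, the share higher was 62.7% and 59.6% at 240 min in CHIP null and wildtype cells and 64.2% and 46.5% at 30 min. Under median centring these shares were 0.405%, 4.32%, 0.799% and 4.2%. The Feature Extraction ratio gave 41.7%, 44.0%, 46.0% and 39.3%.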
